A study of Mus musculus with 20 samples.

Results

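Cells labelled as stage I, or proerythroblasts, were compared between mice lacking both mDia1 and miR-146a (DKO) and double wild-type mice (DWT). The comparison took 4 of the 20 arrays of the series, chosen by their titles: 2 DKO-I arrays and 2 DWT-I arrays. DKO-I came from mDia1-miR-146a double knockout C57BL/6 mice aged 1 year, both female. DWT-I came from double wild-type C57BL/6 mice aged 1 year, 1 male (replicate 1) and 1 female (replicate 2). The labels name no treatment for these mice, do not say how the alleles were made or how stage I cells were isolated, and do not say which mouse gave which DKO array. Each genotype had 2 mice per the design text, no technical replicates were run, and the array (Clariom S, which reads 1 summed signal per transcript) was hybridised with RNA amplified from 700 pg.

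mDia1, encoded by Diaph1, is a formin, a protein that nucleates and elongates straight actin filaments. miR-146a is a microRNA that lowers signalling from Toll-like and interleukin-1 receptors to NF-kB by acting on transcripts such as Traf6 and Irak1, and it is itself induced by NF-kB. Proerythroblasts are the earliest erythroid precursors recognised by morphology. As they mature they raise the enzymes of haem synthesis, the transporters and skeleton of the red cell membrane and the globins, under GATA1, KLF1 and signals from the erythropoietin receptor. The sequence of the deleted microRNA and of its relative miR-146b are shown because both carry 1 seed, here bases 2 to 8 in capitals, from RefSeq on GRCm38.p6. The mature sequence of miR-146a-5p lies at chr11:43374435-43374456 on the minus strand and that of miR-146b-5p at chr19:46342790-46342811 on the plus strand. The mature forms differ at 2 of 22 positions, both outside the seed.
mmu-miR-146a-5p: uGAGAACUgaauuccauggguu
mmu-miR-146b-5p: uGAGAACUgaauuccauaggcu
The microRNA itself was not among the named probe sets and is not reported.

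The DKO-I arrays differed from each other more than the DWT-I arrays did. Across 19572 named probe sets the DKO-I pair correlated at r = 0.9025 and the DWT-I pair at r = 0.9922, as a description across genes that share 1 array each. DKO-I replicate 1 correlated with the DWT-I arrays at 0.9775 and 0.9796, and DKO-I replicate 2 at 0.8788 and 0.8848. The median absolute difference within a pair was 0.639 log2 units in DKO-I and 0.225 in DWT-I, and 308 named probe sets in DKO-I against 1 in DWT-I differed by over 4 log2 units. The median signal of positive controls was 11.1 and 10.04 in DKO-I, against 11.2 and 11.09 in DWT-I. Signal lay above background, the 95th percentile of the array's own background probe sets, for 39.41% and 36.03% of named probe sets in DKO-I, against 40.2% and 39.83% in DWT-I. The genes that carry each result are therefore given with both DKO-I values, and a named call that ends with DKO-I replicate 1 alone is given with that p.

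**Figure D1:**
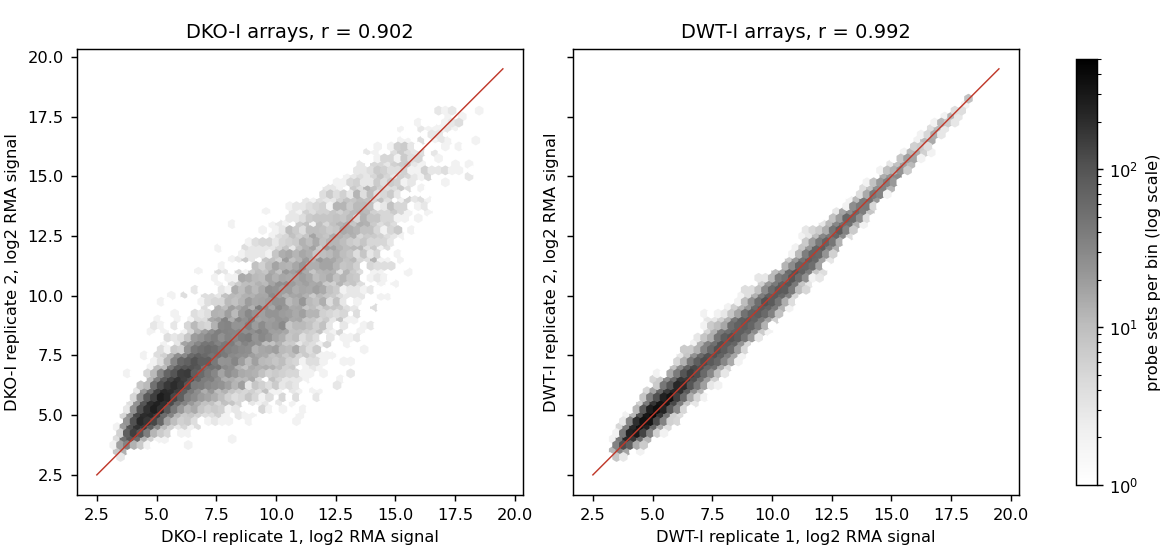
Log2 RMA signal of replicate 2 (vertical axis) against replicate 1 (horizontal axis) for the DKO-I arrays (left) and the DWT-I arrays (right), with shading for the number of named probe sets per bin and a red line of equality. The DKO-I points spread widely around the line (r = 0.9025) and the DWT-I points lie close to it (r = 0.9922).

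The label was checked against marker genes. All 4 arrays read the erythroid genes Slc4a1 and Alas2 well above background, yet Gata1, the master regulator of the lineage, read only 7.16 and 7.996 in DKO-I, against 8.43 and 8.24 in DWT-I, on arrays whose background level was 7.62 to 7.74. The 17 measured neutrophil genes lay above background in both arrays of each genotype, with S100a8, a calcium-binding protein of neutrophil granules, at 18.50 and 17.87 in DKO-I, against 17.92 and 18.07 in DWT-I. Of 8 granulocyte progenitor genes, 5 lay above background in both DKO-I arrays and 6 in both DWT-I arrays. Of 8 eosinophil genes, 3 did so in DKO-I and 8 in DWT-I. The eosinophil mean in DKO-I replicate 2 was 7.13, under that array's background level of 7.74. Monocyte genes lay above background in both DKO-I arrays for 10 of 11 and in both DWT-I arrays for 11. Neutrophil and monocyte transcripts were thus present beside erythroid ones in all 4 arrays, and the arrays are called by their titles, DKO-I and DWT-I. The Y-linked gene Uty matched the labelled sexes, at 4.24 and 5.07 in DKO-I, against 9.84 in DWT-I replicate 1 (male) and 4.16 in DWT-I replicate 2 (female). The 2 measured globin genes, Hbb-y and Hbb-bh1, are embryonic forms and lay near background in all 4 arrays, and the other 7 listed members, the adult globins and their chaperone Ahsp, had no probe set with 1 symbol and are not analysed here. Because RNA came from a population, fewer cells of a type and less RNA per cell cannot be told apart.

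In limma, 87 of 19572 named probe sets passed an adjusted p under 0.05 between DKO-I and DWT-I (0.445%), 11 higher in DKO-I (0.0562%) and 76 lower (0.388%). With positive control probe sets set to an equal median, 117 passed, 42 higher and 75 lower, of which 65 were among the 87. The median log2 fold change of all named genes was 0.15, and 10610 of the 19505 lay near background in all 4 arrays. That of 13 measured housekeeping genes was -0.40 (0.004 in DKO-I replicate 1 alone and -0.91 in replicate 2 alone). Of the 76 that fell, 32 belonged to the 106 measured genes of the erythroid lists, whose median was -1.49, and none of those 106 rose. The DKO-I values of 23 genes lay near background in both arrays. The count depended on the arrays and terms in the fit. With sex of the mouse as a term 24 passed (3 higher, 21 lower) and with array weights 26 (1 higher, 25 lower). Among the 11 that rose, only Saa3 and Upp1 passed again with the sex term in limma (adjusted p = 0.0442 and 0.0227). Only Upp1 did so with array weights (adjusted p = 0.0178). With only the 4 stage I arrays in the fit 0 passed in limma (1169 at an unadjusted p under 0.05, against 3028 before), and without DWT-I replicate 1 or replicate 2 also 0 (1233 and 1544).

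Diaph1, the targeted formin, was low in both DKO-I arrays. It read 7.45 and 7.25 in DKO-I, against 10.76 and 11.49 in DWT-I. Both DKO-I values lay near background and both DWT-I values above it, so the groups did not overlap. It fell by 3.77 ± 0.42 on the log2 scale (SE, n = 2 each, limma adjusted p = 0.00537), which is a bound of at least 3.44 below DWT-I against the background level. Whether the probe set covers the deleted part of the gene is not given in the sources used here. Of 28 measured formins and contractile partners, 2 fell and 0 rose, against 0.388% of all named probe sets that fell. The median of the 28 was -0.33 (0.12 in DKO-I replicate 1 alone and -0.72 in replicate 2 alone). It was 0.15 for all genes and -0.40 for the 13 housekeeping genes. Beside Diaph1, the gene that fell was Myh10, the heavy chain of non-muscle myosin IIB, at 5.91 and 5.95 in DKO-I, against 9.66 and 9.58 in DWT-I. Its fall was 3.69 ± 0.53 (at least 1.94, limma adjusted p = 0.0133), with both DKO-I values near background. The related formins did not pass. Diaph2 read 11.93 and 14.15 in DKO-I, against 10.73 and 10.82 in DWT-I, and Diaph3 read 11.79 and 13.46 in DKO-I, against 12.79 and 12.82 in DWT-I.

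Genes of the red cell membrane were low in both DKO-I arrays. Of 19 measured members 14 fell (0 rose), against 0.388% of all named probe sets that fell. The median of the 19 was -3.73 (-3.74 in DKO-I replicate 1 alone and -3.66 in replicate 2 alone). Their mean signal was 8.93 and 8.56 in DKO-I, against 12.23 and 12.12 in DWT-I. Kel, the Kell blood group protease, read 8.50 and 6.73 in DKO-I, against 13.64 and 13.62 in DWT-I, and fell by 6.02 ± 0.73 (adjusted p = 0.00713). Aqp1, the water channel, read 10.15 and 7.80 in DKO-I, against 15.07 and 14.84 in DWT-I, and fell by 5.98 ± 0.61 (adjusted p = 0.00299). In both genes the lower of the DKO-I values belonged to replicate 2, and the groups did not overlap, as in every gene that passed.

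The anion exchanger and the spectrin skeleton were part of the same group. Slc4a1, band 3, the anion exchanger and main anchor of the skeleton, read 13.20 and 12.23 in DKO-I, against 16.47 and 16.42 in DWT-I, and fell by 3.73 ± 0.32 (adjusted p = 0.00177). Ermap, an erythroid adhesion protein that carries the Scianna antigens in humans, read 8.54 and 8.53 in DKO-I, against 12.79 and 12.63 in DWT-I. Its DKO-I arrays lay within 0.1 of each other. Sptb, beta-spectrin, read 7.12 and 5.86 in DKO-I, against 11.31 and 11.10 in DWT-I, with both DKO-I values near background and a fall of 4.71 (at least 3.52). Slc14a1, the urea transporter, Epb42, protein 4.2, Dmtn, dematin, which bundles actin, Ank1, ankyrin, Rhd and Rhag of the Rh complex, Tspan33, a tetraspanin, Tmod1, tropomodulin, which caps actin, and Add2, beta-adducin, fell by 2.85 to 5.54. Rhd and Add2 lay near background in both DKO-I arrays, which bounds their falls at 3.03 and 2.14 or more. Gypc, Xk, Icam4, Cd47 and Bcam did not pass. With positive controls at an equal median Rhag and Add2 did not pass in limma (adjusted p = 0.132 and 0.105). Rhd passed with both arrays (adjusted p = 0.0302) and not with DKO-I replicate 1 alone (adjusted p = 0.0547).

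**Figure D2:**
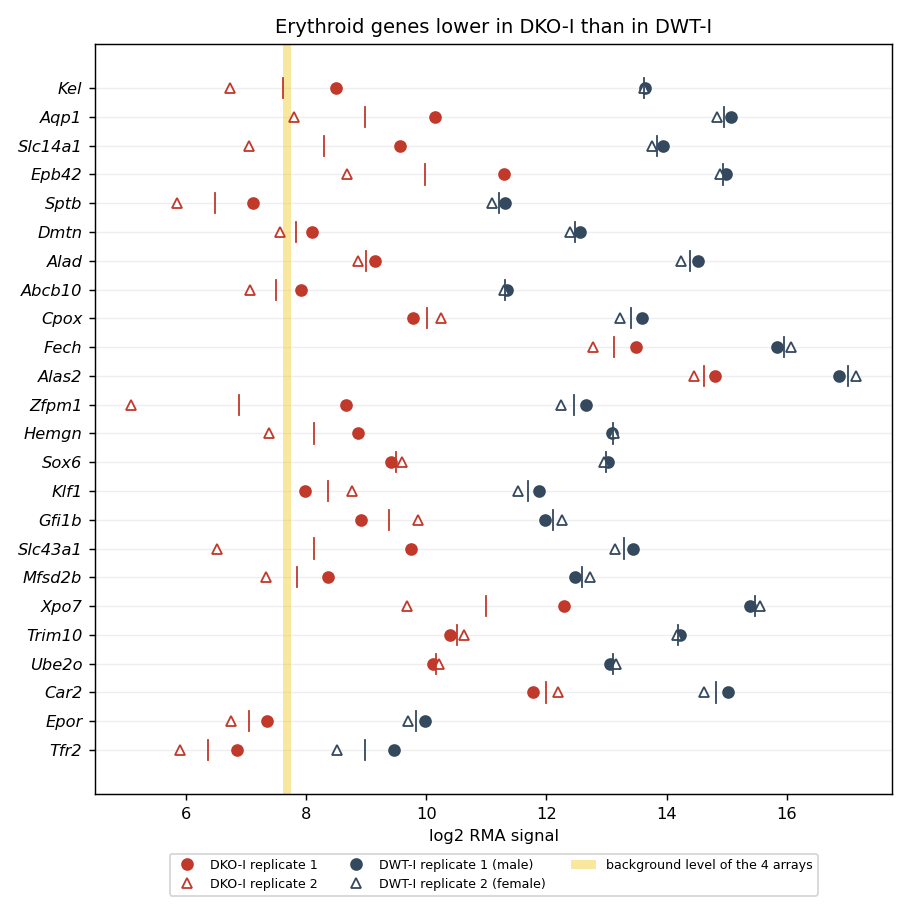
Log2 RMA signal (horizontal axis) of 24 erythroid genes that fell in DKO-I, 1 gene per line: red symbols for DKO-I, dark blue for DWT-I, with short lines for the group means and a yellow band for the background levels of the 4 arrays. The genes were chosen because they passed. No gene that passed had overlapping arrays, so both DKO-I arrays lie left of both DWT-I arrays in each. Arrays did not overlap in 44.1% of all named probe sets.

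Enzymes and transporters of haem synthesis were lower as well. Of 12 measured members 5 fell (0 rose), against 0.388% of all named probe sets that fell. The median of the 12 was -2.72 (-2.19 in DKO-I replicate 1 alone and -3.22 in replicate 2 alone). Alad, which joins aminolevulinic acid into porphobilinogen, read 9.14 and 8.87 in DKO-I, against 14.52 and 14.24 in DWT-I, and fell by 5.38 ± 0.44 (adjusted p = 0.00177). Alas2, the first and rate-limiting erythroid enzyme, read 14.80 and 14.45 in DKO-I, against 16.87 and 17.16 in DWT-I, and fell by 2.39 ± 0.41 (adjusted p = 0.036, and 0.0949 with replicate 1 alone). Both genes stayed above background in DKO-I, and no DKO-I value reached a DWT-I value, as in every gene that fell. Abcb10, a mitochondrial transporter, fell by 3.82, Cpox, a late enzyme, by 3.39, and Fech, which inserts iron, by 2.83 (adjusted p = 0.105 with replicate 1 alone). Urod, at 10.46 and 6.68 in DKO-I, against 12.63 and 12.65 in DWT-I, did not pass (adjusted p = 0.114).

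Iron handling genes moved less. Of 14 measured members 1 fell (0 rose), against 0.388% of all named probe sets that fell. The median of the 14 was -1.13 (-0.36 in DKO-I replicate 1 alone and -1.58 in replicate 2 alone). The gene that fell was Tfr2, transferrin receptor 2, which read 6.85 and 5.89 in DKO-I, against 9.46 and 8.51 in DWT-I. Its fall was 2.62 (at least 1.30, limma adjusted p = 0.045), and it did not pass with replicate 1 alone. Tfrc, the receptor that takes up most of the iron for haem, read 9.33 and 7.27 in DKO-I, against 11.78 and 11.32 in DWT-I, a difference of -3.25 that did not pass (adjusted p = 0.109). Its groups did not overlap, which held for 44.1% of all named probe sets. Of 13 measured red cell antioxidants 0 passed in limma, with a median of -0.96. That median was 0.0009 in DKO-I replicate 1 alone and -0.53 in replicate 2 alone.

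Some regulators of the lineage passed and others did not. Of 20 measured erythroid regulators 5 fell (0 rose), against 0.388% of all named probe sets that fell. The median of the 20 was -1.12 (-1.07 in DKO-I replicate 1 alone and -1.54 in replicate 2 alone). Klf1, the factor that activates adult globin and membrane genes, read 7.98 and 8.76 in DKO-I, against 11.87 and 11.52 in DWT-I, and fell by 3.33 ± 0.53 (adjusted p = 0.0245). It did not pass in limma with positive controls at an equal median (adjusted p = 0.0648) or with quantile normalisation (adjusted p = 0.0577). Zfpm1, which encodes the GATA1 partner FOG1, read 8.66 and 5.09 in DKO-I, against 12.66 and 12.24 in DWT-I, and fell by 5.58 ± 0.91 (adjusted p = 0.0276). The SD of its arrays was 2.53 in DKO-I and 0.29 in DWT-I, while the error uses the pooled spread. Hemgn, a nuclear protein of the erythroid lineage, read 8.87 and 7.38 in DKO-I, against 13.08 and 13.12 in DWT-I, and fell by 4.98 ± 0.49 (adjusted p = 0.00257). In each of these the DWT-I arrays lay within 0.5 of each other and both DKO-I arrays far below. Sox6, a factor of terminal maturation, fell by 3.49, and Gfi1b, a repressor needed for erythroid and platelet precursors, by 2.73. With positive controls at an equal median Gfi1b did not pass in limma (adjusted p = 0.142). Gata1 did not pass (-0.76, limma adjusted p = 0.412), nor did Tal1 (-0.99), Lmo2 (-0.53) or Nfe2 (-1.03), of which Tal1 was near background in all 4 arrays. Gata1 read 8.43 and 8.24 in DWT-I, close to the background level of 7.62. A fall as large as that of Klf1 would have taken it under that level, where signal counted as near background.

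The erythropoietin receptor was lower while its downstream kinase and factors did not pass. Epor read 7.35 and 6.76 in DKO-I, against 9.98 and 9.70 in DWT-I, and fell by 2.79 (at least 2.15, adjusted p = 0.0245). Both DKO-I values were near background. Of 11 measured genes of this pathway 1 fell and 0 rose, against 0.388% of all named probe sets that fell. The median of the 11 was -0.48 (-0.01 in DKO-I replicate 1 alone and -0.70 in replicate 2 alone). Jak2 differed by -1.33 and Stat5a by -0.22, and Bcl2l1, the survival gene BCL-XL, read 10.68 and 7.27 in DKO-I, against 13.00 and 13.40 in DWT-I. Bcl2l1 passed with DKO-I replicate 1 alone (adjusted p = 0.0232) and not with both arrays (adjusted p = 0.0716).

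Promoters of genes that changed were read for letters that erythroid and inflammatory factors are known to bind. RefSeq promoters (GRCm38.p6, 250 bases before to 50 after the start) were found for 62 of the 76 genes that fell, 9 of the 11 that rose and 15691 genes of the array. AGATAA or TGATAA, on either strand, stood in 24 of 62 (38.7%) of the genes that fell, 2 of 9 (22.2%) that rose and 17.7% of all. AGATAA alone, the form searched first, stood in 18 of 62 (29.0%), 2 of 9 (22.2%) and 11.1%, and TGATAA was added after that result had been seen. CCNCNCCC, a KLF-type motif, stood in 72.6%, 33.3% and 60.7%, and an NF-kB-type motif (GGGA and CC with any 4 bases between them) in 35.5%, 22.2% and 26.2%, in the same order. A match is a description of letters in the window and not a bound site. The promoters of 3 genes that fell (capitals mark the GATA letters above, on either strand) and of 1 that rose (capitals mark 2 overlapping matches of the NF-kB-type motif) are shown as examples at chr6:41704276-41704575 on the minus strand (Kel), chr8:84901732-84902031 on the plus strand (Klf1), chr4:46404134-46404433 on the minus strand (Hemgn) and chr5:90903649-90903948 on the plus strand (Cxcl2).
Kel: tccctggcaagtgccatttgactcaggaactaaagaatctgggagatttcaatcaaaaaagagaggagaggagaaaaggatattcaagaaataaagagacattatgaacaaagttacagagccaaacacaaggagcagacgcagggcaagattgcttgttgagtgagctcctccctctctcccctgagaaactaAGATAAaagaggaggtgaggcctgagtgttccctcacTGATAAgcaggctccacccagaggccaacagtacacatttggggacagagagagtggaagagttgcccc
Klf1: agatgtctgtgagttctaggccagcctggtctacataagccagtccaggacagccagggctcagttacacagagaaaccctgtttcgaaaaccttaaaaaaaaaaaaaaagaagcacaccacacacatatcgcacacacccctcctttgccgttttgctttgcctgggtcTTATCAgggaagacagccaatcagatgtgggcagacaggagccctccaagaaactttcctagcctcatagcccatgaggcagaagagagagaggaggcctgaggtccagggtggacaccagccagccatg
Hemgn: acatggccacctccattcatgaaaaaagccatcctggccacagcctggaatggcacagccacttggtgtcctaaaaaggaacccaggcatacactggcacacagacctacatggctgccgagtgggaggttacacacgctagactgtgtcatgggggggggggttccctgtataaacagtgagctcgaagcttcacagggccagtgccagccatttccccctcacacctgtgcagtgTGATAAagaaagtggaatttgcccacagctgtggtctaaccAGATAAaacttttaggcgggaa
Cxcl2: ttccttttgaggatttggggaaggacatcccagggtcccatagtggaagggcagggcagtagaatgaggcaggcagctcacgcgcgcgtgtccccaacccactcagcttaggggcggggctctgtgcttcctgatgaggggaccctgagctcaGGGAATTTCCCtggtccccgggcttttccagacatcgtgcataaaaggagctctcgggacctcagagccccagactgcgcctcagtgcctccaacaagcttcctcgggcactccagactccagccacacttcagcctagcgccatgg
The matches began 56 and 19 bases before the start in Kel and 80 bases before it in Klf1.

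Genes of terminal maturation were lower in DKO-I. Of 15 measured members 6 fell (0 rose), against 0.388% of all named probe sets that fell. The median of the 15 was -2.56, and all 15 were lower in both DKO-I arrays, against 17.4% of all named probe sets. Slc43a1, an amino acid transporter, read 9.74 and 6.52 in DKO-I, against 13.44 and 13.14 in DWT-I, and fell by 5.16 ± 0.84 (adjusted p = 0.0282). Mfsd2b, which exports sphingosine 1-phosphate from red cells, fell by 4.74, Xpo7, an exportin, by 4.48, Trim10 by 3.69, Ube2o, which tags ribosomal and other proteins for removal, by 2.95 (adjusted p = 0.0859 with replicate 1 alone), and Car2, carbonic anhydrase 2, by 2.83. Trim10 and Ube2o belong to the ubiquitin system. Car1, carbonic anhydrase 1, read 11.88 and 13.74 in DKO-I, against 15.59 and 15.15 in DWT-I, and passed with replicate 1 alone (adjusted p = 0.000637) and not with both (adjusted p = 0.0668).

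A further 38 genes that fell were in none of the lists, and those named here were chosen after their values were seen. Slfn14, a ribosome-associated endoribonuclease, read 9.69 and 7.58 in DKO-I, against 13.02 and 12.99 in DWT-I, and fell by 4.37 ± 0.59 (adjusted p = 0.0109). Fhdc1, a formin-related protein of microtubules and actin that the formin list did not hold, read 8.14 and 6.95 in DKO-I, against 11.84 and 11.92 in DWT-I, and fell by 4.34 ± 0.51 (adjusted p = 0.00626). Spire1, another actin nucleator, read 10.28 and 9.72 in DKO-I, against 13.19 and 13.61 in DWT-I, and fell by 3.40 ± 0.45 (adjusted p = 0.00982). Both actin genes had DKO-I arrays below DWT-I, as had every gene that fell. Surface proteins among the 38 were Art4, the Dombrock antigen in humans (-3.17), Cd36, a scavenger receptor (-3.32), Kcnn4, the calcium-gated potassium channel of red cells (-3.54), Slc6a9, a glycine transporter that feeds haem synthesis (-3.76), and Abcg2, a porphyrin exporter (-3.91, adjusted p = 0.14 with replicate 1 alone). Ache, acetylcholinesterase, fell by 3.72 (at least 1.30) with both DKO-I arrays near background.

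The genes that rose included inducible secreted proteins. Of 19 measured acute phase and STAT3 genes 4 rose (0 fell), against 0.0562% of all named probe sets that rose. The median of the 19 was 0.32 against 0.15 for all genes. Saa3, an acute phase apolipoprotein of macrophages and other cells, read 14.27 and 16.46 in DKO-I, against 5.62 and 5.53 in DWT-I. Both DWT-I values lay near background. It rose by 9.79 ± 1.23 (at least 7.74, adjusted p = 0.00913). Upp1, uridine phosphorylase, read 8.60 and 9.40 in DKO-I, against 5.68 and 5.73 in DWT-I, and rose by 3.29 ± 0.32 (at least 1.38, adjusted p = 0.00257). Cfb, complement factor B, rose by 4.23 (at least 1.67) and Orm1, alpha-1-acid glycoprotein, by 3.11 (adjusted p = 0.05 as rounded, just under the threshold), and neither passed with replicate 1 alone (adjusted p = 0.165 and 0.122). Lcn2 and Hp, acute phase genes that neutrophils also hold, differed by 0.33 and 0.28.

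NF-kB target genes and targets of miR-146a showed few calls. Of 28 measured NF-kB and inflammation genes 1 rose (0 fell), against 0.0562% of all named probe sets that rose. The median of the 28 was 0.33. Cxcl2, a neutrophil-attracting chemokine, read 12.68 and 12.99 in DKO-I, against 10.48 and 10.67 in DWT-I, and rose by 2.26 ± 0.40 (adjusted p = 0.0424, and 0.0897 with replicate 1 alone). Cd14, the lipopolysaccharide co-receptor, read 14.01 and 11.98 in DKO-I, against 9.67 and 9.39 in DWT-I, and passed with replicate 1 alone (adjusted p = 0.0232) but not with both (adjusted p = 0.0896). Tnf read 8.72 and 6.85 in DKO-I, against 7.62 and 7.20 in DWT-I, and Il6 lay near background in all 4 arrays. Of 10 measured miR-146a targets 0 passed in limma, and their median was 0.31 in replicate 1 alone and -1.29 in replicate 2 alone. Traf6, a direct target, read 9.03 and 7.53 in DKO-I, against 9.09 and 9.04 in DWT-I, and Irak2 read 11.04 and 8.79 in DKO-I, against 10.38 and 9.92 in DWT-I.

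Stefins, cysteine protease inhibitors abundant in maturing myeloid cells, were higher in DKO-I as a list. Of 11 measured members 2 rose (0 fell), against 0.0562% of all named probe sets that rose. The median of the 11 was 3.45, and 10 were higher in both DKO-I arrays, against 26.7% of all named probe sets. Csta2 read 12.05 and 14.52 in DKO-I, against 9.23 and 9.01 in DWT-I, and rose by 4.16 ± 0.67 (adjusted p = 0.0267). Cstdc4 read 13.53 and 15.52 in DKO-I, against 10.89 and 10.93 in DWT-I, and rose by 3.61 ± 0.57 (adjusted p = 0.0245). Replicate 2 was the higher DKO-I array in both. Neither passed in limma with sex of the mouse as a term (adjusted p = 0.0847 for Csta2 and 0.108 for Cstdc4). The list's median was 1.82 in replicate 1 alone and 4.88 in replicate 2 alone. Stefin genes are near-identical copies, so probes may read more than 1 member, and the split among them is uncertain.

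A few T and innate lymphoid genes were higher in DKO-I. Of 18 measured T and innate lymphoid genes 3 rose (0 fell), against 0.0562% of all named probe sets that rose. The median of the 18 was 0.98, and 12 were higher in both DKO-I arrays, against 26.7% of all named probe sets. Near background in all 4 arrays were 7 of the 18. Above background lay 8 in both DKO-I arrays and 2 in both DWT-I arrays. Of 11 NK and cytotoxic genes (median 0.28) and 12 B cell genes (median 0.22), 0 passed in limma. Cd3g, a chain of the T cell receptor complex, read 11.25 and 11.91 in DKO-I, against 6.35 and 7.23 in DWT-I, and rose by 4.79 ± 0.80 (at least 3.96, adjusted p = 0.0312, and 0.11 with replicate 1 alone). Il7r, the interleukin-7 receptor, read 12.31 and 13.85 in DKO-I, against 8.95 and 8.86 in DWT-I, and rose by 4.18 ± 0.63 (adjusted p = 0.0177). Il23r, the interleukin-23 receptor, read 9.29 and 10.76 in DKO-I, against 6.10 and 6.94 in DWT-I, and rose by 3.51 ± 0.47 (at least 2.40, adjusted p = 0.0108). In all 3 the DKO-I arrays lay above background. None of the 3 passed in limma with sex of the mouse as a term (adjusted p = 0.14 for Cd3g, 0.0863 for Il7r and 0.0528 for Il23r). Cd3d read 11.40 and 12.20 in DKO-I, against 8.04 and 8.49 in DWT-I, without passing (adjusted p = 0.199), and Cd3e read 9.97 and 6.56 in DKO-I, against 7.16 and 7.32 in DWT-I, so the DKO-I arrays disagreed. Cd4, Cd8a and Bcl11b differed by 0.42, 0.94 and 0.65. The mean of the list was 8.42 and 8.13 in DKO-I, against 6.41 and 6.84 in DWT-I, and its part in the results was not tested.

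**Figure D3:**
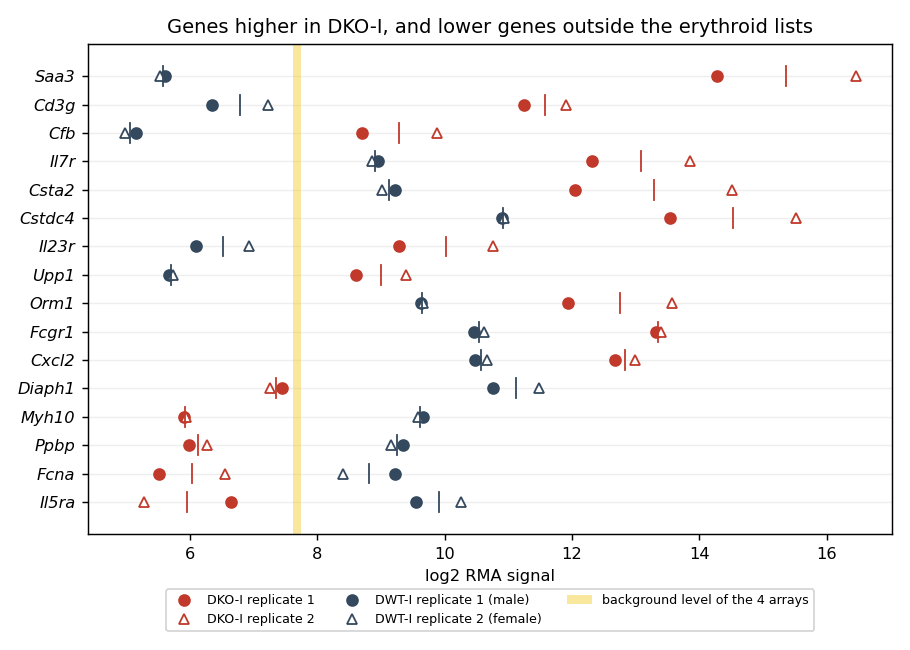
Log2 RMA signal (horizontal axis) of the 11 genes that rose in DKO-I, then of Diaph1, Myh10, Ppbp, Fcna and Il5ra, which fell, with the same symbols and background band as for the erythroid genes. Saa3 lies at 14.27 and 16.46 in DKO-I, against 5.62 and 5.53 in DWT-I, and Diaph1 lies near background in DKO-I only.

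Markers of other myeloid cells moved gene by gene. Fcgr1, the high-affinity IgG receptor of monocytes, read 13.32 and 13.40 in DKO-I, against 10.47 and 10.61 in DWT-I, and rose by 2.82 ± 0.42 (adjusted p = 0.0158), the only call among 11 monocyte genes, whose median was 0.09. Of 17 neutrophil genes 0 passed in limma, with a median of 0.19 (0.88 in replicate 1 alone and -0.53 in replicate 2 alone) and a mean signal of 15.59 and 14.23 in DKO-I, against 14.57 and 14.84 in DWT-I. Eosinophil genes were lower in both DKO-I arrays for 8 of 8 measured members, against 17.4% of all named probe sets, with a median of -4.37 (-2.29 in replicate 1 alone and -6.60 in replicate 2 alone). Of these 1 fell, Il5ra, the interleukin-5 receptor, which read 6.65 and 5.28 in DKO-I, against 9.55 and 10.26 in DWT-I (a fall of 3.94, at least 2.22, adjusted p = 0.0245, and 0.0949 with replicate 1 alone). The mean of the eosinophil list was 10.65 and 7.13 in DKO-I, against 13.17 and 13.16 in DWT-I, so eosinophil signal moved the same way as erythroid signal, and its part in the results was not tested. Fcna, ficolin A of macrophages, fell by 2.78 (at least 1.13) and Ppbp, a platelet chemokine, fell by 3.12 (at least 1.57), both near background in both DKO-I arrays and each the only call among 13 macrophage and 11 megakaryocyte genes.

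Genes of cell division were lower without any call. All 21 measured G2 and M genes were lower in both DKO-I arrays, against 17.4% of all named probe sets, with a median of -2.01, and 0 passed in limma (the median was -0.82 in replicate 1 alone and -3.05 in replicate 2 alone). Mki67, a proliferation marker, read 15.99 and 12.61 in DKO-I, against 16.98 and 16.78 in DWT-I. Of 22 DNA replication genes 19 were lower in both DKO-I arrays, against 17.4% of all named probe sets. Their median was -1.73, and 0 passed in limma. Housekeeping genes were lower in both DKO-I arrays for 4 of 13, with a median of -0.40. For Mki67 replicate 2 was the lower DKO-I array. Odc1, the first enzyme of polyamine synthesis and a MYC target, read 10.00 and 9.92 in DKO-I, against 12.97 and 12.96 in DWT-I, and fell by 3.001 ± 0.39 (adjusted p = 0.00982). It was the only call among 15 MYC and ribosome biogenesis genes, while 54 ribosomal protein genes had a median of 0.01 and 0 passed.

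**Figure D4:**
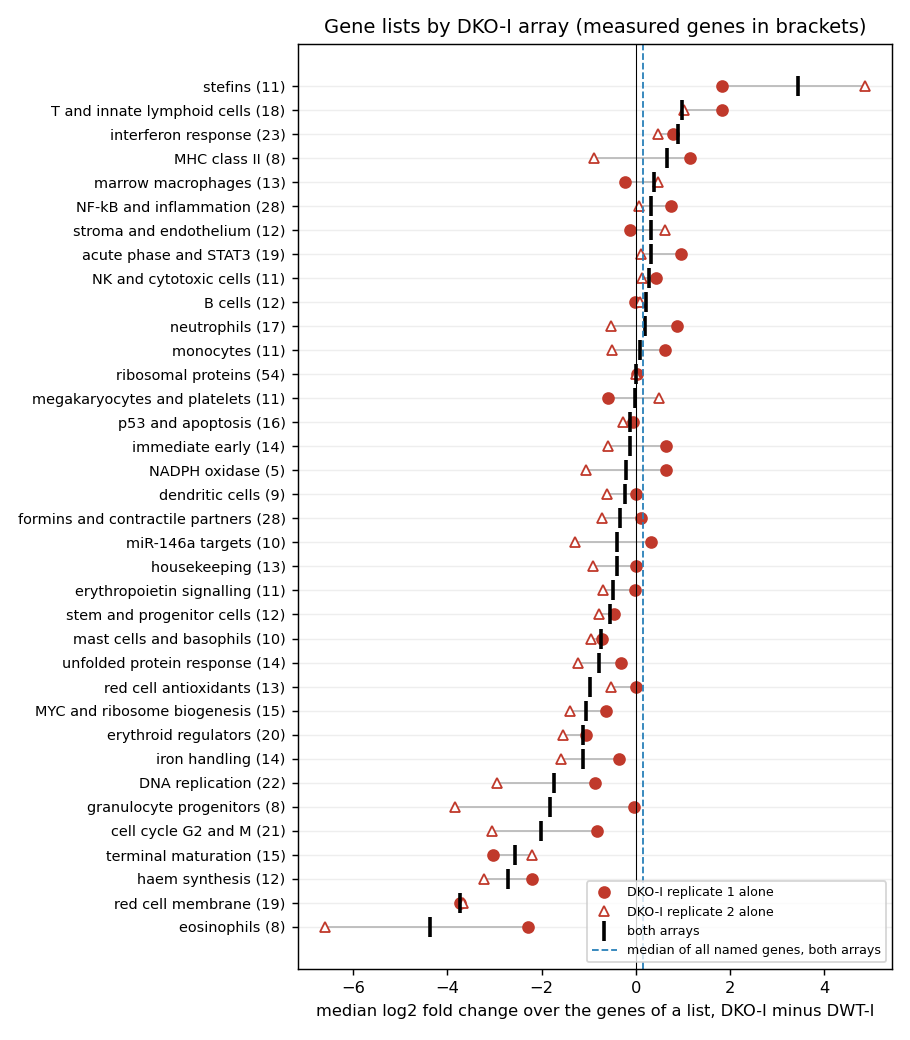
Median log2 fold change of each gene list (horizontal axis, DKO-I minus DWT-I), for DKO-I replicate 1 alone (filled circle), replicate 2 alone (open triangle) and both (black bar), with the median of all named genes as a dashed line at 0.15. Red cell membrane genes lie at -3.74 and -3.66 in the single arrays, whereas eosinophil genes lie at -2.29 and -6.60.

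Taken one array at a time, DKO-I replicate 1 gave 108 calls against DWT-I (0.552%), 16 higher (0.0817%) and 92 lower (0.47%), and DKO-I replicate 2 gave 6066 (31.0%), 3285 higher (16.8%) and 2781 lower (14.2%). Each fit assumes that the lone DKO-I array varies like the other groups. Of the 87 genes, 71 also passed with replicate 1 alone, 7 higher and 64 lower, and all 87 with replicate 2 alone. Among the 76 that fell, replicate 2 was the lower DKO-I array in 47 and replicate 1 in 29. Among the 11 that rose, replicate 2 was the higher array in all. The 76 fell by 1.67 to 5.24 in replicate 1 alone and fell by 1.53 to 7.36 in replicate 2 alone, which is a description, since the genes were chosen on these arrays.

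The genes called at stage I were also read at the later stages. Those arrays are not an independent set: they gave the stage I fit part of its spread, and with 2 mice per genotype the stages share mice, which the fit does not model. The 76 genes had a median of -3.54 at stage I, -2.19 at stage II+III and -0.39 at stage IV, against 0.15, 0.01 and -0.02 for all named probe sets. At stage II+III 75 of 76 had the same sign and 27 passed (121 passed in all, 0.618%), and at stage IV 60 had the same sign and 1 passed, Fcna (9 passed in all, 0.046%). The 11 genes had medians of 3.61, 3.51 and 0.93, with 6 passing at stage II+III and 0 at stage IV. Saa3 read 12.37 and 15.93 in DKO-II+III, against 5.93 and 6.22 in DWT-II+III, and 8.33 and 11.81 in DKO-IV, against 6.23 and 6.08 in DWT-IV. Klf1 read 11.65 and 13.05 in DKO-II+III, against 13.96 and 13.04 in DWT-II+III, where the arrays overlapped, and 15.27 and 15.35 in DKO-IV, against 15.04 and 14.79 in DWT-IV. Diaph1 read 6.999 and 7.59 in DKO-II+III, against 10.41 and 11.07 in DWT-II+III, and 7.22 and 6.87 in DKO-IV, against 9.69 and 9.29 in DWT-IV. The difference of the DKO effect between stages did not pass for any gene in limma, neither at stage II+III against stage I (942 genes at an unadjusted p under 0.05) nor at stage IV against stage I (1898).

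**Figure D5:**
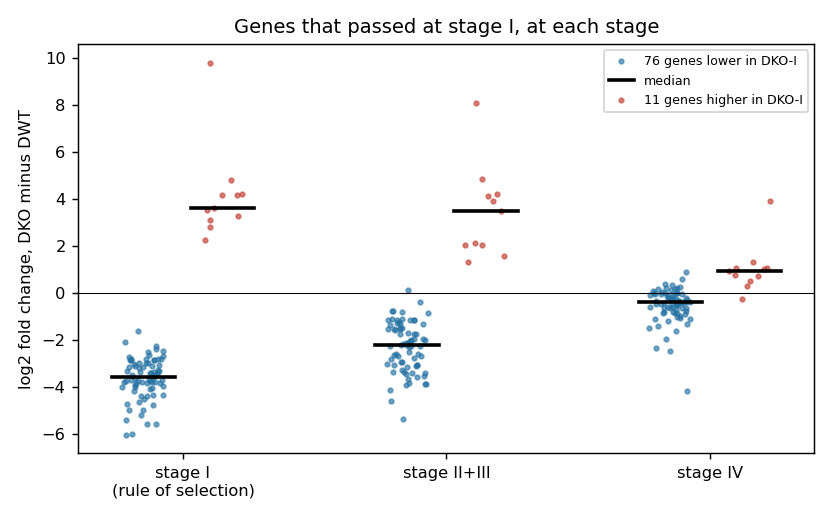
Log2 fold change (vertical axis, DKO minus DWT) of the 76 genes lower and the 11 higher in DKO-I, by stage, with black bars for medians. The genes were chosen by their values at stage I, and the medians of the 76 lie at -3.54, -2.19 and -0.39.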

How the data were processed

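RNA of 12 in vivo arrays was used, of which 4 were labelled stage I. The authors deposited log2 signals made by RMA in Affymetrix Expression Console, per the submitters' processing notes. Versions, and whether all 20 arrays were normalised together, are not given in the sources used here. RMA brings arrays to a common distribution, which can hide a shift shared by most genes. Of 28846 probe sets, 19572 transcript probe sets had 1 gene symbol in the platform annotation (19505 genes) and were tested. A gene with several probe sets is named by the one with the highest mean signal. Signal under the 95th percentile of an array's 23 background probe sets counted as near background. Where 1 group lay there in both arrays, a bound against that level is given as "at least" for the genes described with their fold.

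A single linear model held the 12 in vivo arrays, with 1 mean per group and none for the mouse (limma 3.58.1, R 4.3.3, lmFit, eBayes with an intensity trend, 6 residual and 4.52 prior degrees of freedom). The fit was checked on simulated data that gave each gene 1 spread in all groups. That check could not show how the wider scatter of the DKO-I arrays affects the calls. Tests were 2-sided, with Benjamini-Hochberg adjustment across all 19572 and a threshold of 0.05. Errors are standard errors with n = 2 arrays per group, whose number limits the precision. They use 1 spread per gene pooled over the 12 in vivo arrays, and so can understate the scatter between the DKO-I arrays. Alternatives were other normalisations, filters, arrays and variance models. Genes were named by a rule: Diaph1, the 10 highest and 10 lowest fold changes that passed without overlap, up to 6 passing members of each list, a fixed set of genes and the 5 genes most different between the DKO-I arrays each way. Other genes were named after their values were seen. The comparison, the 38 gene lists (553 of 634 listed genes measured) and the named genes were chosen with earlier results of these data known. Promoter and microRNA sequences came from RefSeq.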

Additional observations from a re-analysis of the deposited data

Results flagged for a closer look

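Outside the named probe sets, 5 transcript probe sets without a gene symbol passed between DKO-I and DWT-I when they were added to the fit, 3 higher and 2 lower in DKO-I. No gene can be given for them here.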

How the results depend on the processing

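The 87 calls at stage I became 153 with only probe sets above background in at least 2 stage I arrays (83 shared), 502 with all 20 arrays in 1 fit (87 shared), 26 with array weights (26 shared), 24 with the sex of the mouse as a term (22 shared) and 0 with only the 4 stage I arrays (1169 at an unadjusted p under 0.05). They were 81 to 117 with quantile normalisation, centring, positive controls at an equal median, no intensity trend or unnamed probe sets added. With positive controls at an equal median, named calls that did not pass were Klf1, Gfi1b, Rhag, Add2, Alas2, Fech, Epor, Tfr2, Ube2o, Art4 and Fcna. Calls lost with the sex term included Klf1, Zfpm1, Alas2 and Epor (limma adjusted p = 0.114, 0.133, 0.135 and 0.106), and Fcgr1 and Cxcl2 (0.0766 and 0.182). Calls kept with it included Diaph1, Slc4a1 and Kel (0.0253, 0.0187 and 0.0415). Without 1 array the calls at stage I ranged from 0 (without DWT-I replicate 1 or 2) to 6066 (without DKO-I replicate 1), with 108 without DKO-I replicate 2, 63 without either DWT-II+III array, 51 without either DWT-IV array, and 53 and 52 without DKO-IV replicate 1 and replicate 2. For stage II+III against stage I the 0 became 1 with the background filter, 4 with 20 arrays and 1 with no trend, and 0 to 2700 without 1 array. For stage IV against stage I it became 49 with 20 arrays, 4 with array weights, 4 with positive controls equal, 1 with unnamed probe sets and 5 with quantile normalisation, and 0 to 4204 without 1 array. The higher ends are without DKO-I replicate 1.

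Among named genes that did not pass, signs turned with positive controls equal for Il6 (0.10), Actb (0.22), Gapdh (0.50) and Csf1r (0.37), and with sex as a term for Il6 (0.20) and S100a8 (-0.47). Leaving out 1 DKO-I array turned the sign of 11 genes, whose values without 1 array ranged from -0.56 to 1.31 for Tnf, -0.12 to 0.50 for S100a8, -0.82 to 0.11 for Actb, -0.78 to 0.62 for Gapdh, -0.68 to 2.73 for Cd3e, -1.24 to 0.82 for Csf1r, -7.52 to 0.91 for Lgals3, -8.16 to 0.19 for Rabac1, -7.23 to 0.57 for Capns1, -0.17 to 8.13 for Mras, -0.80 to 7.25 for Adamdec1. The cause was not tested. No paired analysis was possible because the labels number no replicates and DKO and DWT come from different mice. With 2 mice per genotype the 3 stages share mice, but the labels do not assign the DKO arrays to them, so no term for the mouse was fitted and the stage differences treat arrays as independent. With 2 arrays a group, sex lies within DWT-I only, and whether DKO-I replicate 2 differs by its mouse, its cells or its array cannot be told apart. Signal near background in both arrays touched 23 calls in DKO-I, 3 of them also in DWT-I, and 5 in DWT-I only, and 16 more had 1 DKO-I array there.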

Other observations

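The DKO-I arrays were set apart by genes that the comparison did not call, given here as values with no test. Higher in replicate 1 were Prg2, an eosinophil granule protein, at 16.00 in replicate 1 and 6.83 in replicate 2 of DKO-I, against 17.63 and 17.56 in DWT-I, and Lgals3, galectin 3, at 15.77 and 7.34 in DKO-I, against 15.01 and 14.71 in DWT-I. Rabac1 read 15.24 and 6.88 in DKO-I, against 14.88 and 15.21 in DWT-I, Capns1, the small subunit of calpain, read 15.73 and 7.92 in DKO-I, against 15.25 and 15.05 in DWT-I, and Lrrc59 read 14.04 and 6.10 in DKO-I, against 14.45 and 14.07 in DWT-I. In these 5 genes replicate 2 lay near background or close to it, while replicate 1 lay within 2 log2 units of DWT-I.

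Higher in replicate 2 were Cxcl13, a B cell-attracting chemokine, at 7.89 and 17.95 in DKO-I, against 5.71 and 5.63 in DWT-I, and Adamdec1, a metalloprotease of macrophages, at 6.33 and 14.38 in DKO-I, against 7.08 and 7.18 in DWT-I. Ptprm read 5.47 and 13.92 in DKO-I, against 4.82 and 5.58 in DWT-I, Mras read 5.66 and 13.96 in DKO-I, against 5.86 and 5.80 in DWT-I, and Tex14 read 5.20 and 12.46 in DKO-I, against 4.91 and 5.09 in DWT-I. Some of these gaps were seen between the DKO arrays of later stages too, whose replicate numbers are only names and do not tie them to a mouse. Cxcl13 read 7.34 and 16.20 in DKO-II+III, against 5.498 and 6.41 in DWT-II+III, and 8.73 and 15.95 in DKO-IV, against 5.55 and 5.96 in DWT-IV. Adamdec1 read 6.95 and 13.46 in DKO-II+III, against 5.77 and 5.80 in DWT-II+III, and 6.79 and 10.76 in DKO-IV, against 6.77 and 6.46 in DWT-IV. Mras read 5.64 and 12.21 in DKO-II+III and 5.13 and 9.14 in DKO-IV, and Ptprm read 5.56 and 12.22 in DKO-II+III and 6.03 and 7.74 in DKO-IV. Prg2, higher in replicate 1, read 17.37 and 12.82 in DKO-II+III and 13.80 and 10.01 in DKO-IV. Other gaps were smaller there. Rabac1 read 15.25 and 15.55 in DKO-II+III and 13.66 and 13.84 in DKO-IV, and Capns1 read 15.28 and 15.47 in DKO-II+III and 14.41 and 14.33 in DKO-IV. Lgals3 read 14.34 and 14.53 in DKO-II+III and 10.84 and 11.88 in DKO-IV, and Lrrc59 read 14.51 and 13.38 in DKO-II+III and 12.24 and 12.56 in DKO-IV. Spic, a factor of red pulp and marrow macrophages, read 5.98 and 11.97 in DKO-I, against 7.12 and 6.54 in DWT-I.

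Within ribosomal protein genes, 5 of 54 differed by over 2 log2 units between the DKO-I arrays and 0 between the DWT-I arrays. Rps14 read 16.88 and 12.32 in DKO-I, against 17.02 and 16.89 in DWT-I, and Rpl15 read 16.47 and 11.72 in DKO-I, against 16.50 and 16.55 in DWT-I. Rpl36 went the other way, at 11.44 and 13.88 in DKO-I, against 11.61 and 11.38 in DWT-I. Kit, the stem cell factor receptor, read 12.26 and 5.76 in DKO-I, against 14.28 and 14.10 in DWT-I, and Mpo, myeloperoxidase, read 16.86 and 10.37 in DKO-I, against 17.66 and 17.57 in DWT-I. At the later stages Kit read 14.46 and 10.37 in DKO-II+III and 12.29 and 6.00 in DKO-IV. Mpo read 17.37 and 16.64 in DKO-II+III and 14.70 and 10.86 in DKO-IV. The granulocyte progenitor list had a median of -0.03 in replicate 1 alone and -3.83 in replicate 2 alone.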
